A study of Mus musculus with 10 samples.

Results

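Transcripts of 9 complement genes were examined in hearts of 10 mice aged 10 days, as the rows of the deposited TPM (length-normalised transcript abundance) table that carry these gene names, 9 of 55858 genes. They are the C1q chain genes C1qa, C1qb and C1qc, the protease gene C1ra, the thioester protein genes C4b and C3, the anaphylatoxin receptor genes C3ar1 and C5ar1, and the inhibitor gene Serping1. The 5 cKO mice were given tamoxifen under the skin at 0.1 mg/g on 2 days from postnatal day 0, to delete Chmp4b, and the 5 control mice were given corn oil. Both groups carried the genotype labelled MCM with Chmp4bF/F, and the labels do not spell out MCM or name the cells that it acts in. Tamoxifen was given to the cKO group alone, so that the drug and the deletion cannot be told apart.

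Complement is a cascade of plasma proteins that tags cells and debris for removal. C1q is a bundle of collagen-tailed heads, built of A, B and C chains, that binds its target and activates the proteases C1r and C1s, which cut C4 and C2 and so lead to the cleavage of C3. The small fragments C3a and C5a call in and activate myeloid cells through their receptors, and C1 inhibitor, the product of Serping1, binds and inactivates C1r and C1s. Most plasma complement is made by the liver, whereas C1q is made mainly by macrophages and related myeloid cells, the heart's own included.

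The C1q genes and both receptor genes were higher in cKO hearts, while C1ra, C3 and Serping1 did not pass the test relative to the median gene and C4b was under 1 TPM in every library. TPM sums to one total in each library, and the 13282 tested genes had a median log2 difference of 0.63 in the deposited values. Mitochondrially encoded genes made up at most 41.5% of a cKO library, and at most 59.4% of a control library, and their part in that shift was examined only by removing them. Tests were therefore run on TPM divided by a size factor per library, called relative to the median gene, and TPM as deposited is given beside them. With limma on log2(value + 1) and Benjamini-Hochberg adjustment, 20.8% of all tested genes were called higher relative to the median gene (adjusted p under 0.05) and 20.8% lower. As deposited, 76.5% were called higher and 3.46% lower. Of the 9 members, 8 reached at least 1 TPM in at least 5 libraries and were tested, of which 5 were called higher and 0 lower relative to the median gene, and 7 higher and 0 lower as deposited. C3ar1 entered the test only through its cKO libraries, since 0 of 5 control libraries reached 1 TPM, so its call is no support for the count.

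The targeted gene Chmp4b, which encodes an ESCRT-III subunit, stood at 29.3 ± 1.37 in cKO and 60.5 ± 6.47 in control hearts after scaling (SD, n = 5 each, exact permutation p = 0.00794, the smallest that 252 splits allow). As deposited it had 38.2 ± 1.42 TPM in cKO and 47.4 ± 8.61 TPM in control hearts, with overlap. Cardiomyocyte markers summed to between 36010 and 39968 TPM in cKO and between 36147 and 44639 TPM in control libraries. Relative to the median gene, 10 of 10 of these markers were called lower, with a median log2 difference of -0.92 beside the -1.01 of Chmp4b (as deposited 3 were called lower and 0 higher), and their part in the Chmp4b value was not tested. Xist, the transcript of the inactive X chromosome in female cells, exceeded the Y-linked Ddx3y in 3 cKO libraries (replicates 1, 5 and 7) and in 0 control libraries. Sex is therefore unevenly spread between the groups, and results are also given without those 3 libraries.

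C1qa, C1qb and C1qc lie in a row on the minus strand of chromosome 4, within 18675 bases (136880129 to 136898803, GENCODE M21 on GRCm38). The promoter windows of RefSeq run from 250 bases before to 50 after its own gene start, which for C1qc and C1ra lies inside the GENCODE gene. Most of the window of each of these genes is therefore within the GENCODE gene. The windows were matched by symbol for 6 of the 9 members (GRCm38.p6). Those of C1qb (chr4:136886151-136886450, minus strand) and C1qc (chr4:136892865-136893164, minus strand) are shown because the genes adjoin and moved together, and that of C1ra (chr6:124512371-124512670, plus strand) because its product works with theirs but its transcript did not move with them. Capitals mark every match, on either strand, to GAAA, any 2 bases, GAAA (interferon-stimulated response element), TTCNNNGAA (STAT site), GGGA, any 4 bases, CC (kappa-B site), TTGCNNNAA (C/EBP site) or GAGGAA (PU.1 site).
C1qb: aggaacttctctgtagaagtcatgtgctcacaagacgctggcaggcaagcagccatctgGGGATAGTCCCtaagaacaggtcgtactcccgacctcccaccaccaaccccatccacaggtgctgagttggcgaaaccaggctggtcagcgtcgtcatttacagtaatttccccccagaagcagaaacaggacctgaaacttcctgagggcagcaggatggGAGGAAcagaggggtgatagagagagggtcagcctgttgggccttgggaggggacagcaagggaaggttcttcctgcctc
C1qc: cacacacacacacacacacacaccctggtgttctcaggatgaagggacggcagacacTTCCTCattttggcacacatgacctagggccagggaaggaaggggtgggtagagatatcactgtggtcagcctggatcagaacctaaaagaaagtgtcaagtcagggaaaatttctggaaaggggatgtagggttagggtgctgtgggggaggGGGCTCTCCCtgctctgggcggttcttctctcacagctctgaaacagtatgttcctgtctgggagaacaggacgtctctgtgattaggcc
C1ra: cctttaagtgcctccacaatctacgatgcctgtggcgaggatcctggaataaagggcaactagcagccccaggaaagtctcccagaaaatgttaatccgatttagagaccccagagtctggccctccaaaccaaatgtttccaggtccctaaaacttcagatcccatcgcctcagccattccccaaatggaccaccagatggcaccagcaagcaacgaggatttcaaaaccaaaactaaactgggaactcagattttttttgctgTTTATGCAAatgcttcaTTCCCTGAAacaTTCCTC
Both C1q windows held kappa-B letters, as 2 overlapping matches on opposite strands in C1qb and 1 match in C1qc, and each held 1 match to the PU.1 letters. The C1ra window held 1 match each to the STAT, C/EBP and PU.1 letters and 0 to the kappa-B letters. These letters are common. Of 32851 windows, 20.7% held the kappa-B letters, 28.3% the PU.1 letters, 9.56% the C/EBP letters, 8.30% the STAT letters and 3.44% the interferon-stimulated response element. The windows of C3ar1 and C5ar1, which rose as well, held none of the 5 motifs, and that of C3 held kappa-B letters 3 times. A match says only that the letters are there.

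C1qa, which encodes the A chain (ENSMUSG00000036887.6, chromosome 4, 136895917 to 136898803), had 103, 83.4, 105, 86.2 and 115 TPM in cKO replicates 1, 3, 5, 6 and 7, against 12.7, 17.5, 15.9, 15.3 and 12.0 TPM in control replicates 4, 6, 8, 9 and 13. The groups were far apart, with the lowest cKO library several times above the highest control library. The mean TPM was 98.5 ± 13.3 in cKO and 14.7 ± 2.27 in control hearts (n = 5 each, SD), a ratio of 6.72 as deposited and 4.04 relative to the median gene. Relative to the median gene the log2 difference was 1.95 ± 0.09 SE (adjusted p = 7.34e-08, limma). Values without overlap and higher in cKO were seen in 15.8% of all tested genes relative to the median gene and in 62.5% as deposited.

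C1qb, the B chain gene (ENSMUSG00000036905.9, chromosome 4, 136880129 to 136886187), had 89.9, 73.5, 82.4, 64.6 and 99.3 TPM in the cKO replicates, against 9.48, 13.3, 13.1, 10.7 and 9.84 TPM in the control replicates, in the order given for C1qa. The log2 difference relative to the median gene was 2.04 ± 0.10 SE (adjusted p = 9.47e-08, limma). C1qc, the C chain gene (ENSMUSG00000036896.6, chromosome 4, 136889804 to 136893065), had 75.6, 54.9, 76.1, 55.6 and 83.8 TPM in the cKO replicates, against 10.3, 12.4, 11.2, 11.7 and 8.59 TPM in the control replicates. Its log2 difference relative to the median gene was 1.85 ± 0.11 SE (adjusted p = 5.05e-07, limma). As deposited, the 3 chain genes differed by 2.67 (C1qa), 2.75 (C1qb) and 2.55 (C1qc). None of these values overlapped between groups on either scale. Among the 13282 tested genes ordered by mean TPM, C1qa was at rank 904 in cKO and 3637 in control hearts, C1qb at 1075 in cKO and 4484 in control hearts, and C1qc at 1265 in cKO and 4620 in control hearts.

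The chains kept nearly the same proportions to one another. C1qa made up 39.6% ± 1.4 of the summed C1q TPM in cKO and 39.8% ± 0.63 in control hearts (n = 5 each, SD), with overlap. The share of C1qb was 32.8% ± 1.5 in cKO and 30.6% ± 1.8 in control hearts, and that of C1qc 27.6% ± 1.2 in cKO and 29.6% ± 1.7 in control hearts, again with overlap. TPM is per length, so these are shares of transcripts and not of reads. None of the 50-base windows of the C1q transcripts occurred in transcripts of another gene. The protein-coding gene next to the cluster on one side, Epha8, was at most 0.05 TPM in any library, and on the other side Ephb2 had 0.32 ± 0.09 TPM in cKO and 0.25 ± 0.05 TPM in control hearts (n = 5 each, SD). Beyond Epha8, the zinc finger gene Zbtb40 differed by 0.00 ± 0.14 SE relative to the median gene (adjusted p = 0.988, limma).

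Within the cKO group, all 3 C1q genes were higher in the 3 libraries with Xist than in the other 2. The same held for C1ra, C3 and Serping1, whereas C4b, C3ar1 and C5ar1 overlapped. For C1qa the ranges were 74.4 to 91.0 with Xist and 63.3 to 71.6 without it, in scaled TPM. For C1qc they were 54.5 to 66.5 with Xist and 41.6 to 46.2 without it. The values were seen before this split was made, and it was not tested. The share of all genes with this order was not computed. Without the libraries with Xist, the log2 differences relative to the median gene were 1.79 ± 0.09 SE for C1qa, 1.85 ± 0.09 SE for C1qb and 1.59 ± 0.10 SE for C1qc (adjusted p = 1.72e-05, 1.33e-05 and 4.11e-05, limma). The controls, all with Ddx3y above Xist, stood below every cKO library.

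**Figure D1:**
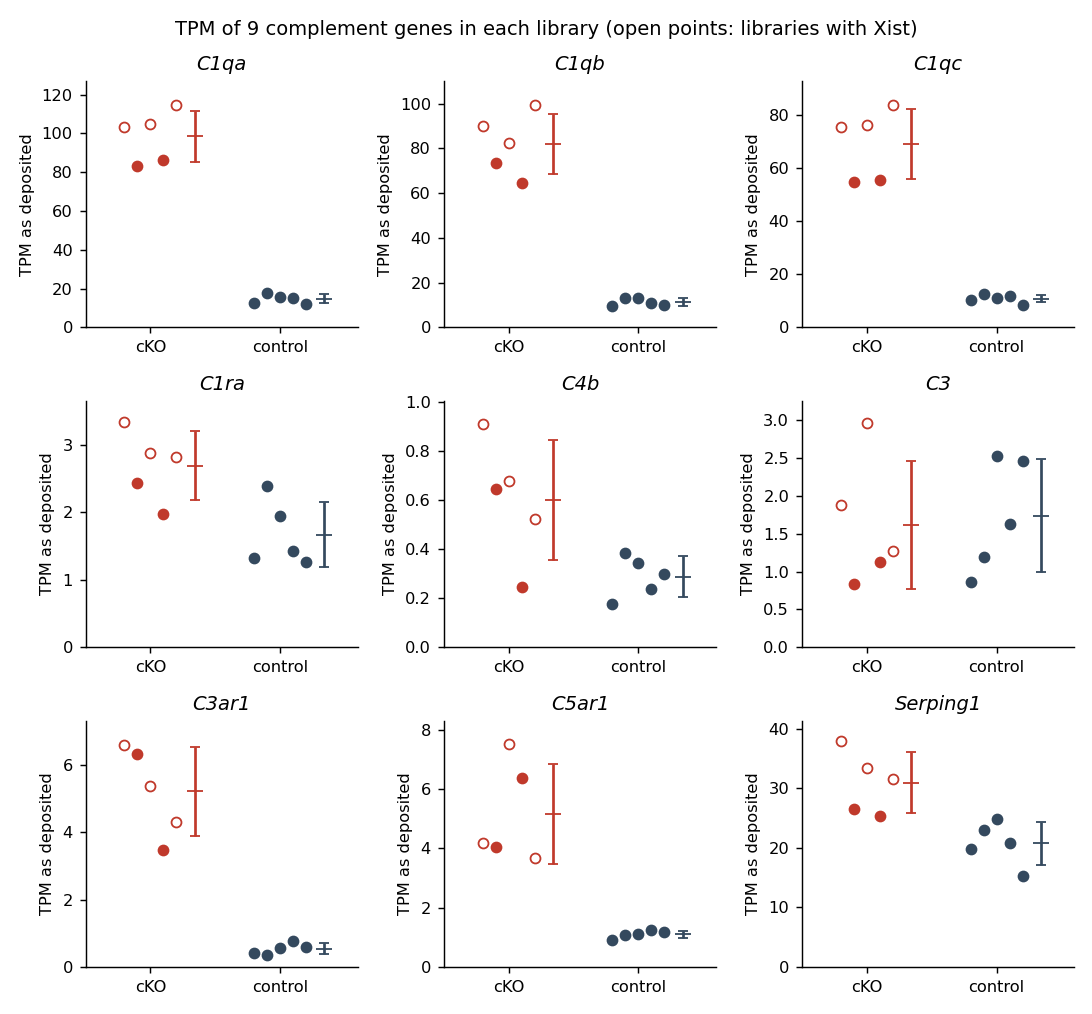
TPM as deposited (vertical axes, each from 0) of the 9 complement genes in 5 cKO and 5 control libraries, with the mean and SD beside the points and open points for libraries with Xist. The C1q genes, C3ar1, C5ar1 and Serping1 do not overlap between groups on this scale, C1ra, C4b and C3 do, and C4b stays under 1 TPM. On this scale 62.5% of all tested genes were higher in cKO without overlap.

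Most macrophage markers were higher in the same hearts. Relative to the median gene, 15 of 18 tested markers were called higher and 1 lower (median 1.51, against 0.01 over all tested genes). Over all tested genes these shares were 20.8% and 20.8%, or 76.5% and 3.46% as deposited. Ccr2 and Fcgr1, 2 of the 15, entered the test only through their cKO libraries, with 0 control libraries at 1 TPM, and had to differ. Cx3cr1 had 1 control library at 1 TPM, Trem2 2 and Ms4a7 3, so these also passed the filter mainly through cKO libraries. As deposited, 17 were called higher and 0 lower, and the 20 markers summed to 375 to 563 TPM in cKO and 69.8 to 98.6 TPM in control libraries. The defining receptor gene Csf1r ran from 21.8 to 35.4 TPM in cKO and from 3.74 to 6.40 TPM in control libraries, and none of the 20 markers was at 0 in all libraries. Not all markers rose. Relative to the median gene, the 1 called lower was Lyve1 (-0.55 ± 0.14 SE, adjusted p = 0.00715, limma). Folr2 (-0.003) and Mertk (0.05) were not called on that scale. Timd4, a marker of resident macrophages, and Cd163 were not tested. Timd4 stayed under 1 TPM in all libraries, with means of 0.05 TPM in cKO and 0.24 TPM in control hearts and overlap. Cd163 had means of 0.67 TPM in cKO and 0.38 TPM in control hearts, with overlap. In bulk hearts, a change in the number of such cells and a change in RNA per cell cannot be told apart. Summed C1q TPM was 0.528 ± 0.031 of the summed macrophage marker TPM in cKO and 0.436 ± 0.016 in control libraries (SD, n = 5 each), without overlap, a ratio of 1.21 between groups beside the 6.78-fold ratio of C1q itself.

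**Figure D2:**
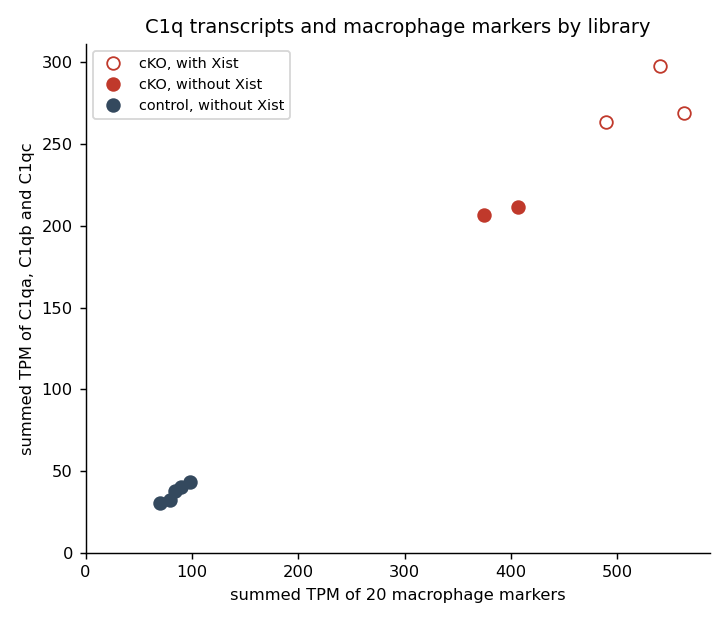
Summed TPM of C1qa, C1qb and C1qc (vertical axis) against the summed TPM of 20 macrophage markers (horizontal axis), 1 point per library, with open points for libraries with Xist. The control libraries lie at 30.4 to 43.2 on the vertical axis and the cKO libraries at 206 to 298, with the 3 libraries with Xist highest on both axes.

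Of the other classical pathway members, C1ra was not called relative to the median gene and C4b was not tested. C1ra, the gene for the protease C1r (ENSMUSG00000055172.11, chromosome 6, 124512405 to 124523443, plus strand), had 3.34, 2.44, 2.87, 1.98 and 2.82 TPM in cKO replicates 1, 3, 5, 6 and 7, against 1.32, 2.39, 1.95, 1.43 and 1.27 TPM in control replicates 4, 6, 8, 9 and 13. The groups overlapped, with control replicate 6 level with cKO replicate 3. Relative to the median gene the log2 difference was -0.02 ± 0.12 SE (adjusted p = 0.894, limma), whereas as deposited it was 0.47 ± 0.15 SE and called (adjusted p = 0.00929, limma), below the 0.63 of the median gene. Of the 50-base windows of C1ra transcripts, 50.8% also occur in Gm18840 or in C1rb, its close copy, which had at most 0.04 TPM in any library. C4b, which encodes complement C4 (ENSMUSG00000073418.5, chromosome 17, 34728380 to 34743882, minus strand), had 0.91, 0.64, 0.68, 0.25 and 0.52 TPM in the cKO replicates, against 0.17, 0.38, 0.34, 0.23 and 0.30 TPM in the control replicates. These values overlapped and all were under the 1 TPM required, so that C4b was left out of the test. With no filter its log2 difference relative to the median gene was 0.08 ± 0.09 SE (adjusted p = 0.569, limma). C4a, the linked copy that shares 34.6% of the 50-base windows of C4b, ran from 0.59 to 3.18 TPM in cKO and from 0.09 to 0.90 TPM in control libraries, and how reads were divided between the copies is not known. The sum of C4a and C4b ran from 1.11 to 4.09 TPM in cKO and from 0.32 to 1.14 TPM in control libraries, with overlap and a ratio of means of 3.32. TPM is per length, so that this sum can also depend on how shared reads were handled.

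C3, the central protein of the cascade (ENSMUSG00000024164.16, chromosome 17, 57203970 to 57228136, minus strand), was low and varied among animals. It had 1.88, 0.83, 2.97, 1.12 and 1.27 TPM in cKO replicates 1, 3, 5, 6 and 7, against 0.86, 1.19, 2.53, 1.64 and 2.47 TPM in control replicates 4, 6, 8, 9 and 13. The groups overlapped across nearly their whole ranges. The log2 difference was -0.52 ± 0.23 SE relative to the median gene (adjusted p = 0.0904, limma) and -0.08 ± 0.23 SE as deposited (adjusted p = 0.767, limma). Without cKO replicate 5 it was -0.65 and without control replicate 4 it was -0.66, both then called lower (adjusted p = 0.0361 and 0.0444, limma), so that single libraries decide the call. Hepatocyte transcripts were present in both groups. Their 9 markers summed to 29.6 to 82.9 TPM in cKO and 35.6 to 101 TPM in control libraries, 4 of 9 were called lower and 0 higher relative to the median gene (as deposited 0 lower and 0 higher), and their part in C3 was not tested. Over all tested genes, 20.8% were called lower relative to the median gene. Albumin had 22.4 ± 8.83 TPM in cKO and 32.2 ± 12.9 TPM in control hearts (n = 5 each, SD).

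Both anaphylatoxin receptor genes rose. C3ar1, the receptor for C3a (ENSMUSG00000040552.9, chromosome 6, 122847138 to 122856161, minus strand), had 6.60, 6.34, 5.38, 3.47 and 4.32 TPM in cKO replicates 1, 3, 5, 6 and 7, against 0.41, 0.34, 0.57, 0.76 and 0.59 TPM in control replicates 4, 6, 8, 9 and 13. Every cKO library stood above every control library. The ratio of mean TPM was 9.76 as deposited and 5.75 relative to the median gene, and the log2 difference on log2(scaled TPM + 1), which understates low values, was 1.55 ± 0.14 SE (adjusted p = 5.34e-06, limma). With 0 control libraries at 1 TPM, C3ar1 passed the filter only through its cKO libraries, so its p-values are no support. C5ar1, the receptor for C5a (ENSMUSG00000049130.7, chromosome 7, 16246743 to 16259540, minus strand), had 4.16, 4.06, 7.51, 6.36 and 3.69 TPM in the cKO replicates, against 0.90, 1.07, 1.11, 1.23 and 1.16 TPM in the control replicates. These groups did not overlap either, and the cKO animals spread more widely than the controls. Values higher in cKO without overlap were seen in 15.8% of tested genes relative to the median gene and in 62.5% as deposited. The log2 difference was 1.01 ± 0.16 SE relative to the median gene (adjusted p = 0.000413, limma) and 1.52 ± 0.16 SE as deposited (adjusted p = 4.01e-06, limma). The order of cKO libraries was not that of C1q, since replicate 5 was highest for C5ar1, replicate 1 for C3ar1 and replicate 7 for C1qa. Without the 3 libraries with Xist, the log2 differences relative to the median gene were 1.44 ± 0.19 SE for C3ar1 and 1.04 ± 0.17 SE for C5ar1 (adjusted p = 0.00111 and 0.0033, limma). Neutrophils also carry C5ar1. Of 10 neutrophil markers, 2 were tested, and 0 were called relative to the median gene and 1 higher as deposited (S100a8). On the latter scale 76.5% of all tested genes were called higher. The 10 markers summed to 14.5 to 51.7 TPM in cKO and 7.47 to 22.7 TPM in control libraries. Among those not tested, Csf3r ran from 0.57 to 1.48 TPM in cKO and from 0.14 to 0.25 TPM in control libraries, while Ly6g and Mpo did not exceed 0.24 TPM in any library. Mean TPM in cKO and control hearts was 2.33 and 0.65 for Retnlg, 1.54 and 0.70 for Ngp, and 0.47 and 0.08 for Camp. Retnlg and Ngp overlapped between groups on both scales, and Camp only after scaling. The means of Cxcr2, Ltf and Ly6g were also higher in cKO, whereas that of Mpo was lower. The part of neutrophils in C5ar1 was not tested.

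Serping1, which encodes C1 inhibitor (ENSMUSG00000023224.13, chromosome 2, 84765387 to 84775444, minus strand), had 37.8, 26.5, 33.4, 25.3 and 31.5 TPM in cKO replicates 1, 3, 5, 6 and 7, against 19.8, 23.0, 24.8, 20.8 and 15.2 TPM in control replicates 4, 6, 8, 9 and 13. As deposited the groups just failed to overlap, whereas after scaling they overlapped, at 20.1 to 27.3 in cKO and 21.7 to 29.2 in control libraries. As deposited, 62.5% of all tested genes were higher in cKO without overlap. The log2 difference was 0.56 ± 0.14 SE as deposited (adjusted p = 0.00252, limma), below the 0.63 of the median gene. On that scale 76.5% of all tested genes were called higher. Relative to the median gene the log2 difference of Serping1 was -0.15 ± 0.10 SE (adjusted p = 0.242, limma). With Ddx3y as a covariate it was -0.29 ± 0.10 SE and called lower relative to the median gene (adjusted p = 0.0482, limma). Like C1q, C1ra and C3, Serping1 was higher in cKO libraries with Xist (31.5 to 37.8 TPM) than in those without it (25.3 to 26.5 TPM). Of 12 fibroblast markers, 9 were called higher and 3 lower relative to the median gene, with sums of 2033 to 2618 TPM in cKO and 825 to 1258 TPM in control libraries. Of 12 endothelial markers 12 were called lower relative to the median gene, with sums of 1198 to 1521 TPM in cKO and 1132 to 1562 TPM in control libraries. As deposited, 10 fibroblast markers were called higher and 1 lower, and 1 endothelial marker higher and 0 lower. The shares over all tested genes were 20.8% higher and 20.8% lower relative to the median gene, and 76.5% and 3.46% as deposited. The part of these cells in Serping1 was not tested.

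Ratios within a library do not depend on the scaling. C1qa per unit of Lyz2, a lysozyme gene of macrophages, was 0.534 ± 0.081 in cKO and 0.485 ± 0.051 in control libraries (SD, n = 5 each), with overlap, while Lyz2 itself averaged 189 ± 45.9 TPM in cKO and 30.4 ± 5.35 TPM in control hearts. C3ar1 per unit of Lyz2 was 0.0283 ± 0.0077 in cKO and 0.0185 ± 0.0076 in control libraries, and C5ar1 per unit of Lyz2 was 0.0295 ± 0.0141 in cKO and 0.0372 ± 0.0096 in control libraries, both with overlap. C1qb and C1qc per unit of Lyz2 overlapped as well. Per unit of Tyrobp, another macrophage marker, C1qb was 1.71 ± 0.12 in cKO and 1.29 ± 0.20 in control libraries, without overlap. C1qa, C1qc, C3ar1 and C5ar1 overlapped per unit of Tyrobp. Serping1, C1ra and C3 were lower per unit of Lyz2, without overlap, and so was C4b, which was under 1 TPM throughout. Lyz2 itself was 6.21-fold higher in cKO as deposited, so that genes which rose less fall on this measure through the choice of divisor. The share of all genes that do so was not computed. Serping1 had a ratio of 0.167 ± 0.021 in cKO and 0.682 ± 0.054 in control libraries, C1ra 0.0144 ± 0.0015 in cKO and 0.0543 ± 0.0078 in control libraries, and C3 0.00867 ± 0.00465 in cKO and 0.0600 ± 0.0321 in control libraries. Between members, C1qa stood at 3.21 ± 0.34 times the TPM of Serping1 in cKO and at 0.713 ± 0.067 times in control hearts, without overlap. C1qa thus exceeded Serping1 in every cKO library and lay below it in every control library.

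**Figure D3:**
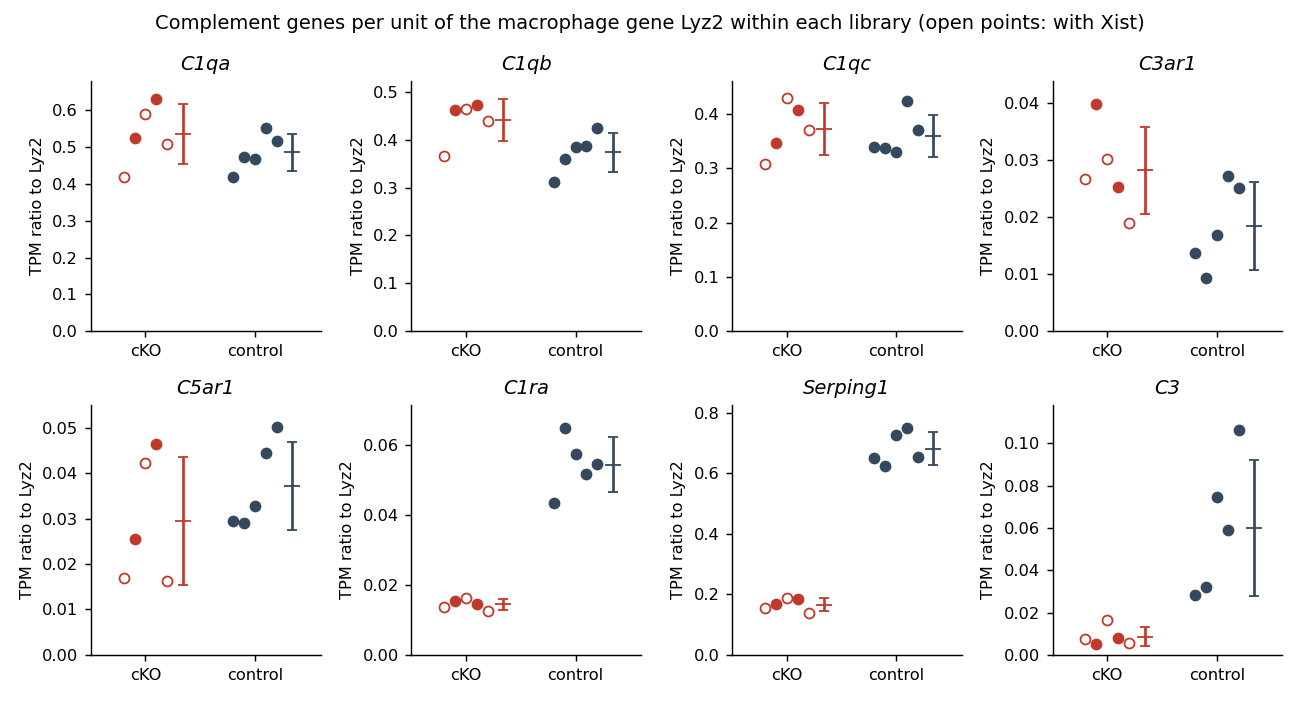
TPM of 8 complement genes divided by the TPM of the macrophage gene Lyz2 in the same library (vertical axes, from 0), for 5 cKO and 5 control libraries, with the mean and SD beside the points and open points for libraries with Xist. The C1q and receptor genes overlap between groups on this measure, whereas C1ra, Serping1 and C3 are lower in cKO libraries. Lyz2 itself was 6.21-fold higher in cKO as deposited, so genes that rose less fall here through the choice of divisor.

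The genes whose profiles were most like each member were found as those with the smallest root-mean-square distance between log2 scaled profiles over the 10 libraries, each centred on its mean, among 13281 other tested genes. The nearest profiles to C1qa were C1qc (0.09) and C1qb (0.10), followed by Creg1 (0.10), which encodes a lysosomal glycoprotein. The nearest to C1qb was Ctsd (0.08), the gene of the lysosomal protease cathepsin D, ahead of C1qa and Creg1 (0.10 each), and the nearest to C1qc were C1qa (0.09), Taldo1 (0.10) and Glul (0.11). Taldo1 encodes transaldolase and Glul glutamine synthetase. C3 had no close match. Its nearest, Pex10, lay at 0.21 and the next, at 0.25, was Apoh, 1 of the hepatocyte markers. The nearest to C3ar1 was Pdlim3 (0.13), to C5ar1 P2rx6 (0.16), to C1ra Pdcl (0.08) and to Serping1 Cped1 (0.08). With 10 libraries in 2 groups, such a distance mostly reflects the size of the group difference.

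Among the other 45 complement genes listed, 16 were tested, and 5 were called higher and 7 lower relative to the median gene (as deposited, 9 higher and 0 lower). Over all tested genes, 20.8% were called higher and 20.8% lower relative to the median gene, and 76.5% higher as deposited. Among the 16, the largest rise on log2(value + 1) was in Clu, the gene of clusterin, a chaperone that also inhibits assembly of the membrane attack complex. It had 782, 584, 532, 297 and 478 TPM in cKO replicates 1, 3, 5, 6 and 7, against 43.2, 48.0, 42.8, 37.7 and 31.8 TPM in control replicates 4, 6, 8, 9 and 13. No library of one group came near the other, and the log2 difference relative to the median gene was 2.89 ± 0.18 SE (adjusted p = 5.05e-07, limma). Clu thus exceeded every member in level in all 10 libraries. Masp1, a lectin pathway protease gene, had 31.5 ± 9.59 TPM in cKO and 6.89 ± 1.09 TPM in control hearts (n = 5 each, SD), a log2 difference of 1.32 ± 0.15 SE relative to the median gene (adjusted p = 2.57e-05, limma). Of the alternative pathway, Cfp, the gene of properdin, had 6.29 ± 1.10 TPM in cKO and 2.54 ± 0.29 TPM in control hearts (n = 5 each, SD, log2 difference relative to the median gene 0.44 ± 0.11 SE, limma adjusted p = 0.00579). Without the libraries with Xist the log2 difference of Cfp was 0.44 ± 0.15 SE and no longer called (adjusted p = 0.0661, limma).

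Itgam and Itgb2 encode the chains of complement receptor CR3, which binds C3 fragments on myeloid cells. Itgam had 3.66 ± 0.86 TPM in cKO and 0.75 ± 0.18 TPM in control hearts, and Itgb2 4.79 ± 1.00 TPM in cKO and 1.14 ± 0.53 TPM in control hearts (n = 5 each, SD). Both had a log2 difference of 0.95 relative to the median gene (adjusted p = 7.71e-05 for Itgam and 0.00073 for Itgb2, limma). Only 1 control library for Itgam and 2 for Itgb2 reached 1 TPM. Both thus passed the filter through their cKO libraries, which limits what these p-values show. Cd93, a C-type lectin receptor gene of endothelial and myeloid cells, was level between groups as deposited (log2 difference 0.054, limma adjusted p = 0.641) and lower relative to the median gene (-0.67 ± 0.08 SE, limma adjusted p = 6.68e-05). C1s1, the gene for the protease C1s, was likewise level as deposited (0.11, limma adjusted p = 0.502) and lower relative to the median gene (-0.55 ± 0.12 SE, limma adjusted p = 0.00245).

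Besides Serping1, 7 inhibitor genes were tested, of which 1 was called higher, 4 lower and 2 not called relative to the median gene. As deposited, 3 were higher, 0 lower and 4 not called. Over all tested genes the shares were 20.8% higher and 20.8% lower after scaling, and 76.5% and 3.46% as deposited. Vtn, the gene of vitronectin, stood at -0.93 ± 0.12 SE relative to the median gene (adjusted p = 8.25e-05, limma) and at -0.26 as deposited, where it was not called (adjusted p = 0.0885, limma). Cd59b, which encodes a membrane-bound inhibitor of the attack complex, stood at -0.93 ± 0.24 SE relative to the median gene (adjusted p = 0.00957, limma) and was not called as deposited (-0.47, adjusted p = 0.0875, limma). It was also not called with Ddx3y as a covariate (-0.76, adjusted p = 0.0773, limma) or without the libraries with Xist (-0.70, adjusted p = 0.156, limma). The terminal components were scarcely detected. Of 7 genes, 6 were under 1 TPM in all 10 libraries, and C8g had 1.48 ± 0.54 TPM in cKO and 1.56 ± 0.20 TPM in control hearts (n = 5 each, SD). Its log2 difference was -0.51 ± 0.13 SE relative to the median gene (adjusted p = 0.00699, limma) and -0.07 as deposited (adjusted p = 0.688, limma).

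**Figure D4:**
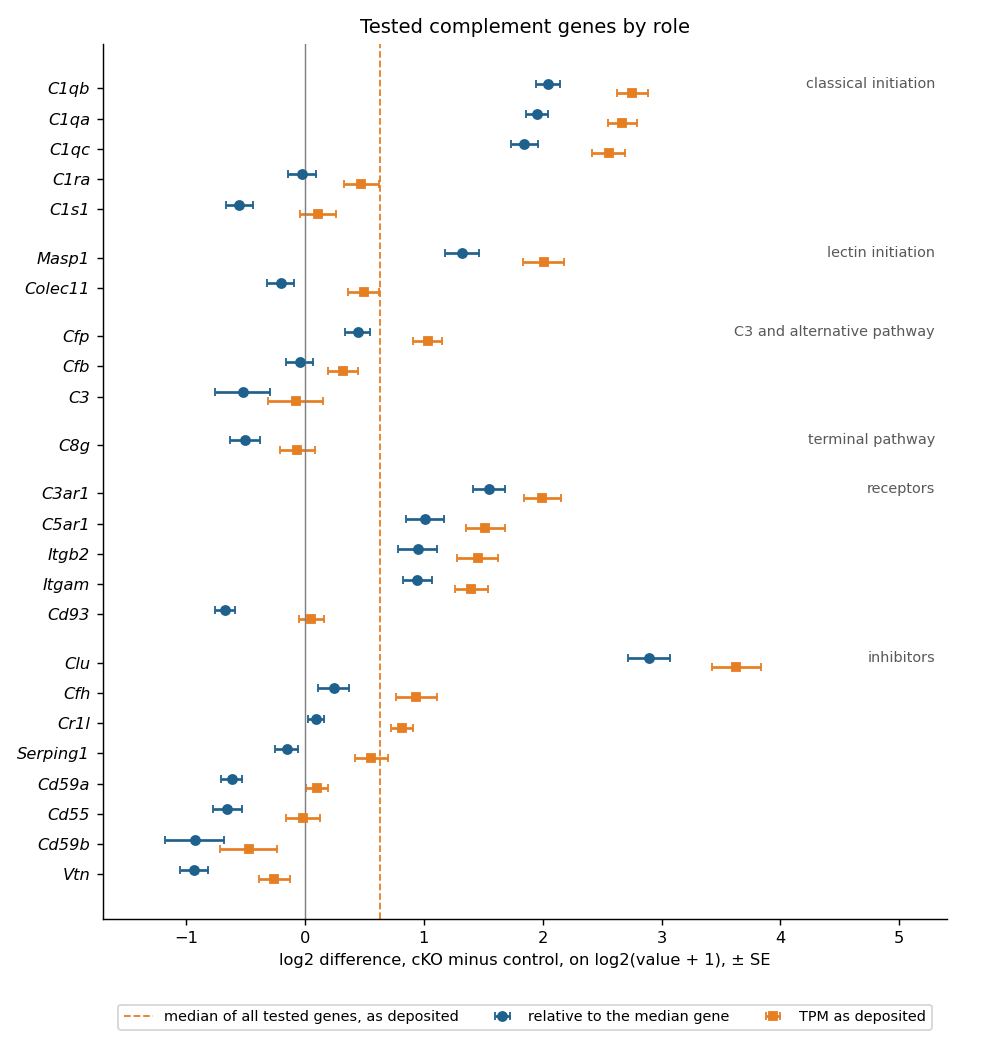
Log2 difference between cKO and control hearts (horizontal axis, ± SE) for the 24 tested complement genes, grouped by role, relative to the median gene (circles) and as deposited (squares). The dashed line marks the 0.63 of the median tested gene as deposited, which C1ra and Serping1 do not pass and the C1q genes, C3ar1, C5ar1, Masp1 and Clu do.

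Interferons and NF-kB are known inducers of several complement genes. Of 14 interferon response genes, 11 were called higher and 0 lower relative to the median gene, 1 of them (Ifit1) with 0 control libraries at 1 TPM. Of 13 tested acute-phase and NF-kB genes, 3 were called higher and 0 lower on that scale, 1 of them (Il1b) with 0 control libraries at 1 TPM, and Stat3 stood at 0.10 ± 0.10 SE (adjusted p = 0.463, limma). As deposited, 14 of the interferon response genes and 11 of the acute-phase and NF-kB genes were called higher. The share of all tested genes called higher was 20.8% after scaling and 76.5% in the deposited values. The part of interferons or NF-kB in the complement genes was not tested.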

How the data were processed

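RNA was sequenced from whole hearts of 10 mice, 5 per group, and groups were read from the titles. Values are TPM, deposited by the authors in 1 table in which each library sums to 1000000. The submitters' processing notes name, with no role or order, build mm10, DESeq2 1.22.2, STAR 2.7.1, Trimmomatic 0.32, HTSeq 0.11.2, Picard 1.96, FastQC 0.11.7 and bcl2fastq. The annotation, gene lengths and strand setting are not given in the sources used here. TPM keeps no depth, so the reads behind a value are unknown and no counting interval was given. No 2 libraries held identical values. Nothing in the labels states litters or batches, so whether the animals are independent in that respect is not known. The p-values set the group difference against the spread between these animals, treated as independent.

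Genes with at least 1 TPM in at least 5 of 10 libraries were kept (13282). Each library was scaled by its median-of-ratios factor (16393 genes, 0.70 to 1.39) and compared as log2(value + 1) with limma 3.58.1 in R 4.3.3 (mean-variance trend, two-sided, Benjamini-Hochberg adjustment over all tested genes, called under 0.05). The step was also run on simulated data in which few genes changed, all of them upward. That run cannot show how the scaling behaves where many genes change, as here. Chmp4b was also given an exact permutation test over samples (two-sided). Of 55858 genes, 51460 matched GENCODE M21 by ID without version. Promoter windows are those of RefSeq. Python 3.11.15 handled tables.

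The members and lists were chosen with earlier results of these data known. All members are named. Of the other complement genes, up to 3 called genes per role list with the largest differences are named, with copies of members, up to 2 markers per list by mean TPM, and the 3 nearest profiles. Any other gene named (Csf1r, Ccr2, Fcgr1, Lyve1, Folr2, Mertk, Cd163, Timd4, Csf3r, Ly6g, Mpo, Ifit1, Il1b, the neighbours of the C1q genes and those below the required TPM) was chosen after its values were seen. This also holds for Cx3cr1, Trem2, Ms4a7, Retnlg, Ngp, Camp, Cxcr2 and Ltf. Alternatives varied scaling, pseudocount, filter, variance model, library weights, a Ddx3y covariate and each library. Leaving out the libraries with Xist was chosen after seeing the data.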

Additional observations from a re-analysis of the deposited data

Results flagged for a closer look

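Among 21 named genes, each examined in both groups (42 groups of 5 libraries), a single library stood far from the rest of its group in 2 cases, about what chance gives at 1 in 20 groups. Both concerned control replicate 9. Its Itgb2 value was 2.04 TPM, against 1.11 TPM in the next highest control library. Its C4a value was 0.901 TPM, against 0.271 TPM in the next highest. None of the 9 members had such a library.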

How the results depend on the processing

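The 5 members called higher relative to the median gene remained called, in the same direction, under each alternative scaling, pseudocount, filter and model run, without any 1 library and without the 3 cKO libraries with Xist. C3ar1 is 1 of these 5 and passed the filter only through its cKO libraries, so its calls add no support. The count of members called lower was 0, and 1 with the Ddx3y covariate (Serping1). It was 0 to 1 without any 1 library. As deposited, C1ra (0.47) and Serping1 (0.56) turned positive and were called, and without the libraries with Xist neither was called on that scale. C1s1 (0.11) and Cd93 (0.054, or 0.066 without the libraries with Xist) also changed sign as deposited. Of all complement genes, members included, 10 were called higher and 7 lower, and 16 higher and 0 lower as deposited, with 1 lower when the libraries with Xist were left out as well. Without any 1 library these counts were 10 higher and 7 to 8 lower. Over all genes, 2763 higher and 2766 lower became 10160 and 460 as deposited, 6064 and 1373 after mitochondrially encoded genes were removed, 1673 and 1804 without the libraries with Xist, and 8942 and 308 as deposited without those libraries. Without any 1 library they were 2529 to 2712 higher and 2499 to 2756 lower. The choice of scaling sets the level that a change is read against, and these data cannot show total RNA per cell. Removing mitochondrially encoded genes left the median of all genes at 0.28. No paired analysis was possible because the groups share only 1 replicate number (6). The depth of the libraries is unknown, so precision for members near 1 TPM (C3, C4b and C3ar1 in controls) could not be given.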

Other observations

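Among the 29 other complement genes below the required TPM, the receptor genes C5ar2 and Itgax did not overlap between groups on either scale. The receptor genes Cr2 and Vsig4 overlapped on both scales. C1s2 and Cd46 did not overlap as deposited but did after scaling. Of all tested genes, 62.5% were higher in cKO without overlap as deposited and 15.8% relative to the median gene. No such share was computed for genes below the required TPM. The genes given here were chosen after their values were seen. C5ar2, the second receptor for C5a, ran from 0.35 to 0.88 TPM in cKO and from 0.02 to 0.14 TPM in control libraries. Itgax, a chain of complement receptor CR4, ran from 0.47 to 1.42 TPM in cKO and from 0.04 to 0.09 TPM in control libraries. C2, the partner of C4 in the classical pathway, ran from 0.81 to 1.16 TPM in cKO and from 0.10 to 1.55 TPM in control libraries, with the widest spread in the controls. Cpn2, which encodes a subunit of the anaphylatoxin-cleaving carboxypeptidase N, ran from 0.033 to 0.197 TPM in cKO and from 0.16 to 0.41 TPM in control libraries, overlapping as deposited and lower without overlap after scaling (adjusted p = 0.0026 with no filter on low values, limma).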
